A study of Homo sapiens with 56 samples.

Results

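The NF-kB pathway and its targets were followed in mantle cell lymphoma, a B-cell lymphoma, through 38 genes of 21595 named genes in the deposited expression table. The members were the rows that carry 1 of 38 gene symbols: 5 transcription factor subunits, 8 inhibitors and feedback regulators, 5 adaptors and signalling proteins, 7 surface molecules and 13 other genes described as targets or as B-cell activation genes. All 38 were listed for all 56 libraries.

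NF-kB is a family of dimeric transcription factors built from the subunits NFKB1, NFKB2, RELA, RELB and REL. In resting B cells inhibitor proteins hold the dimers in the cytoplasm. Signals from the B-cell receptor, through BTK, or from receptors such as CD40 lead to phosphorylation of the inhibitor, which the proteasome then degrades, and the freed dimers switch on target genes that include the inhibitor NFKBIA itself. Another, slower branch depends on the kinase MAP3K14, and the proteasome processes the NFKB2 precursor in it.

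Poly-A RNA-seq had been carried out on 4 established cell lines, with 13 libraries of Z138, 15 of JEKO-1, 15 of MINO-P and 13 of MINO-VR. The last 2 have separate labels, in which P and VR are not explained. The treatments were CON (5 libraries, taken as untreated), CLF (6), BTZ (6), BTZ_CLF (4), IBR (11), IBR_CLF (8), YM155 (4), S63845 (6), IBR_YM155 (2), BTZ_YM155 (2), IBR_S63845 (1) and BTZ_S63845 (1), with no dose or time in the labels. The design text speaks of a proteasome inhibitor and a BTK inhibitor, and BTZ and IBR are the usual short forms of bortezomib, a proteasome inhibitor, and ibrutinib, a BTK inhibitor. YM155 was developed to suppress BIRC5, S63845 binds and inhibits MCL-1, and the labels do not expand CLF. Of the 37 combinations of line and treatment, 22 had 1 library, 11 had 2 and 4 had 3. Nothing states that libraries came from separate cultures, so the p-values measure the spread between libraries only.

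Depth recovered from the table ran from 5.525 to 21.62 M reads per library, which makes 3 reads worth between 0.1387 and 0.543 CPM. Mitochondrial transcripts held 1.907% to 80.49% of a library (median 6.695%). Levels are therefore given as nuclear CPM, that is, CPM computed over the reads of nuclear genes alone, and differences as log2 of nuclear CPM plus 1, a scale that understates the change of low genes. The summed markers of B cells were at 360.9 to 3347 nuclear CPM and those of mantle cell lymphoma at 290.4 to 3742. Summed T cell markers reached at most 11.24 and epithelial markers at most 33.86 nuclear CPM. Monocyte markers reached 134.1 and fibroblast markers 74.85. In JEKO-1 and the MINO lines, 8 pairs of libraries had names that differ by a final letter only and were more alike (chi-square per degree of freedom 4.06 to 8.28) than the other 10 replicate pairs of these lines (85.35 to 349.51) and the 5 of Z138 (48.75 to 289.67). Each of the 8 pairs was averaged to 1 sample, which left 48 samples. JEKO-1 BTZ replicate 3 stood apart, with 11899 genes detected against 14180 and 14244 in the other JEKO-1 BTZ libraries, so results that rest on it are given with and without it. Under 14000 genes were also detected in Z138 BTZ (13176), JEKO-1 BTZ_CLF replicate 1 (13383) and MINO-P IBR replicate 3 (13395). The same held for JEKO-1 S63845 (13437) and MINO-P S63845 replicate 2 (13657). Levels given for Z138 BTZ and JEKO-1 S63845 rest on 1 such library each. The untreated libraries and those of CLF, BTZ and BTZ_CLF in MINO-P and MINO-VR carried names beginning with HK, and all other libraries names beginning with MCL. In these lines any comparison of IBR, YM155 or S63845 with CON therefore crosses that split.

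Promoter sequences are printed for the 4 members that were called in the most comparisons among those with a match to the kappaB consensus, the DNA motif that NF-kB dimers bind. RefSeq promoter windows of GRCh38.p14 were found for 34 of the 38 members, and 8 of the 34 (23.5%) held the consensus, on either strand, in the 250 bases before the start, against 1380 of 27305 (5.05%) RefSeq windows. The other 4 with a match were REL, NFKBIZ, TRAF3 and CFLAR; NFKBIZ was called in as many comparisons (3) as NFKB1, which is printed. Each stretch below has 120 bases, reads 5′ to 3′ on the gene's strand and stops before the transcribed part, and capitals mark the match. A match is a description of the letters, not evidence of binding. Only 1 window per gene symbol was used. For 25 of the 34 members (73.5%) the 30 bases after its start lay in a GENCODE transcript of that gene. The stretches lie at chr14:35404751-35404870 (NFKBIA, minus strand), chr6:137867094-137867213 (TNFAIP3, plus strand), chr20:45348426-45348545 (SDC4, minus strand) and chr4:102501210-102501329 (NFKB1, plus strand).
NFKBIA: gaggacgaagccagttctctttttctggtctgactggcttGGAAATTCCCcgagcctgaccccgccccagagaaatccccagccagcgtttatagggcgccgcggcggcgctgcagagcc
TNFAIP3: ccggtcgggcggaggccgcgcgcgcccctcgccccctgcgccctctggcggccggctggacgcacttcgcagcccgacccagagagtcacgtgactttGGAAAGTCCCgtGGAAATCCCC
SDC4: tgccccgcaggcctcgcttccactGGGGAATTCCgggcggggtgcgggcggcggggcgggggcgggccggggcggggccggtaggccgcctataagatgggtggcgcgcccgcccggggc
NFKB1: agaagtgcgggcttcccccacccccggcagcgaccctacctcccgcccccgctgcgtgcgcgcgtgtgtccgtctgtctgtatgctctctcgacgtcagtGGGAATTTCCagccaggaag
The TNFAIP3 stretch, from the gene of the deubiquitinase A20 that shuts the pathway down, held 2 matches set 2 bases apart. The other stretches held 1 match each.

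Most NF-kB genes were lower with BTZ in the MINO lines. In the 8 libraries whose names begin with HK (CON, CLF, BTZ and BTZ_CLF of each line), 4 with BTZ were compared with 4 without, with line and CLF as terms. Of 37 members tested, 24 fell and 5 rose (SLAMF1 did not pass the filter of at least 1 nuclear CPM in 2 samples). Over all 13442 genes 35.6% were called lower and 20.6% higher, where a call is a Benjamini-Hochberg adjusted p under 0.05 in limma. The median log2 difference was -0.96 over the members and -0.18 over all genes. By role, 4 of 5 subunits, 6 of 8 inhibitors, none of 5 adaptors, 4 of 6 surface molecules and 10 of 13 other targets fell. Leaving out each library in turn left 26 to 28 members called. The mitochondrial share was 3.229% to 5.911% in the 4 libraries with BTZ and 2.167% to 3.375% in the 4 without, ranges that overlap, and its part in the result was not tested. In bulk RNA, fewer cells that express a gene and less of its RNA per cell cannot be told apart.

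The 6 largest falls in the MINO lines were those of EBI3, PIM1, MIR155HG, TNFAIP3, ICAM1 and NFKBIE. EBI3, a subunit of the cytokines IL-27 and IL-35, stood at 14.93 (CON) and 18.13 (CLF) nuclear CPM in MINO-P and at 0.7514 (BTZ) and 2.236 (BTZ_CLF) with BTZ. In MINO-VR it went from 55.56 and 81.73 to 14.17 and 15.71. The groups overlap if the lines are pooled and do not overlap within either line (log2 difference -2.49, SE 0.22, adjusted p = 7.31e-05).

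PIM1, a pro-survival serine/threonine kinase, stood at 351 and 215.5 nuclear CPM in MINO-P CON and CLF and at 52.85 and 63.43 in BTZ and BTZ_CLF. In MINO-VR the same 4 libraries held 196.6, 267, 49.63 and 49.79. All 4 libraries with BTZ lay below all 4 without (log2 difference -2.21, SE 0.17, adjusted p = 5.21e-05). TNFAIP3 went from 184.2 and 117.9 to 45.33 and 39.77 nuclear CPM in MINO-P and from 135.5 and 168.4 to 38.01 and 29.04 in MINO-VR (log2 difference -1.96, SE 0.16, adjusted p = 6.66e-05).

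MIR155HG, the host transcript of the microRNA miR-155, held 23.54 and 14.17 nuclear CPM without BTZ and 3.945 and 5.413 with it in MINO-P. Its levels in MINO-VR were 30.01 and 44.92 without BTZ and 7.116 and 7.75 with it (log2 difference -1.97, SE 0.23). ICAM1, an adhesion molecule, was at 188.7 to 489.4 nuclear CPM in the 4 libraries without BTZ and at 44.21 to 147 in the 4 with it (log2 difference -1.89, SE 0.18). NFKBIE, an inhibitor protein of the NFKBIA family, was at 229 to 290.7 without BTZ and at 54.73 to 102.1 with it (log2 difference -1.78, SE 0.15). For these 3 genes no library with BTZ reached a library without it.

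NFKBIA went from 290.3 and 212.7 nuclear CPM to 83.03 and 95.84 in MINO-P and from 368.4 and 457.1 to 194.4 and 168.1 in MINO-VR. The highest library with BTZ, at 194.4, lay just below the lowest without it, at 212.7 (log2 difference -1.32, SE 0.14, adjusted p = 0.000208). CD83, a surface marker of activated B cells, held 284.1 and 181.2 without and 33 and 56.48 with BTZ in MINO-P, but 107 and 131 without and 98.02 and 94.92 with it in MINO-VR (log2 difference -1.33, SE 0.41, adjusted p = 0.0235). Among the subunits REL fell by 1.33, NFKB1 by 1.09, RELB by 0.98 and NFKB2 by 0.96 on the log2 scale. The remaining falls were those of STAT5A, NFKBIZ, PIM2, MARCKS, NFKBID, PLEK, IER3, BATF, TNFAIP8, SDC4, BCL3 and CD40, with log2 differences from -1.68 (STAT5A) to -0.48 (CD40). Among 8 fits that left out 1 library each, CD40 lost its call in 6, SDC4 in 5, TNFAIP8 in 4 and CD83 in 3. The other members that fell kept theirs. In a fit with a term for the difference between the lines, the response to BTZ was called different in 7 of 37 members, 4 with a larger value in MINO-VR (4.24% of all genes) and 3 with a smaller one (3.88%). CD83 was among the 4 (log2 difference 2.07, SE 0.38, adjusted p = 0.0203).

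Some NF-kB genes rose with BTZ in these lines. RGS1, a regulator of G-protein signalling in B cells, was at 7.175 to 29.08 nuclear CPM in the 4 libraries without BTZ and at 60.07 to 112.7 in those with it (log2 difference 2.56, SE 0.29, adjusted p = 0.000226). TNFAIP2, a TNF-induced gene, went from between 8.532 and 15.31 to between 53.9 and 87.59 nuclear CPM (log2 difference 2.40, SE 0.17, adjusted p = 3.82e-05). MAP3K14, the kinase NIK of the slower branch, went from between 19 and 23.63 to between 55.82 and 78.03 (log2 difference 1.65, SE 0.14). TNIP1, a partner of A20, rose by 0.70 and RELA by 0.56 on the log2 scale. In all 5 genes every library with BTZ lay above every library without it.

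**Figure D1:**
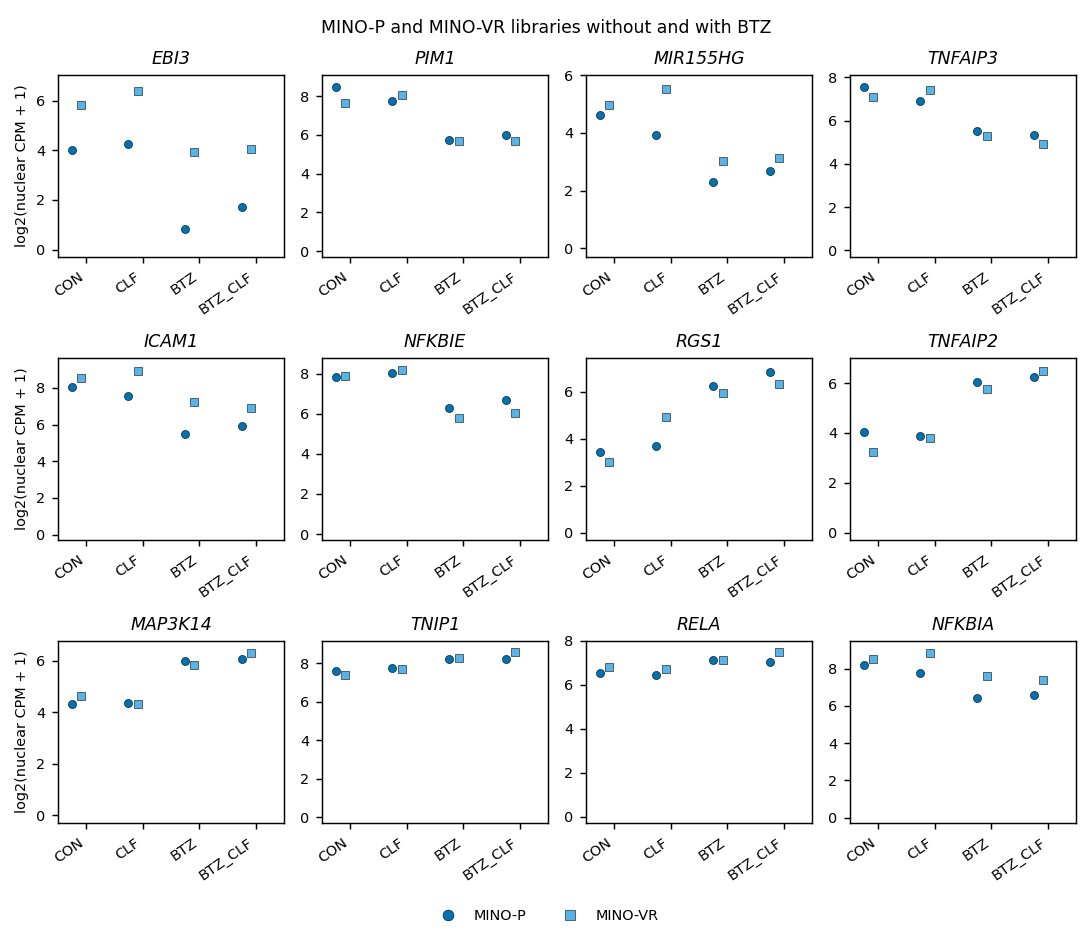
Levels of 12 NF-kB genes in the 8 MINO-P (circles) and MINO-VR (squares) libraries of CON, CLF, BTZ and BTZ_CLF; each point is 1 library, and the vertical axis is log2(nuclear CPM + 1). The BTZ and BTZ_CLF points of EBI3 and NFKBIA lie below those of the same line without BTZ, and for RGS1, TNFAIP2, MAP3K14, TNIP1 and RELA they lie above.

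Of 44 other genes of the pathway (upstream receptors and kinases, and further targets), 19 fell and 12 rose with BTZ in the MINO lines, shares not far from the 35.6% and 20.6% of all genes. The cytokine genes LTA and LTB fell by 3.11 and 2.69 on the log2 scale, and the anti-apoptotic BCL2A1 fell by 2.46. The largest rises were those of the ubiquitin ligase TRAF6 (1.27), the deubiquitinase OTULIN (1.02) and the protease MALT1 (0.79).

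Across all 4 lines the comparison of BTZ with CON shares those MINO libraries and adds JEKO-1 and Z138. Over 48 samples, with line, treatment and library name series as terms, 12 of 38 members fell and 1 rose, beside 13.0% of 16615 genes called lower and 4.06% called higher. With CPM as deposited, mitochondrial reads included, all genes split into 254 higher and 2923 lower against 675 and 2158 here, and the members into 1 and 14. With size factors the split over all genes was 1112 and 1691, and 9 members fell. The median log2 difference was -0.85 over the members and -0.20 over all genes, and -1.04 and -0.38 with CPM as deposited.

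PIM2, a kinase related to PIM1, fell by 1.57 on the log2 scale (SE 0.27, adjusted p = 0.000133), PIM1 by 2.03 (SE 0.36, adjusted p = 0.000198) and NFKBIE by 1.88 (SE 0.36, adjusted p = 0.000395). These 3 calls held under every alternative run, including JEKO-1 and Z138 only, where they were the only members called (log2 differences -1.90, -1.83 and -1.91). PIM1 stood at 299.2, 350.9 and 233 nuclear CPM in the JEKO-1 BTZ libraries against 578.4 in CON, and at 11.86 in Z138 BTZ against 64.06 and 45.88 in CON. PIM2 was at 87.86, 93.02 and 101.3 against 208.5 in JEKO-1 and at 25.26 against 207.8 and 159.3 in Z138. For both kinases every BTZ library lay below the CON libraries of its line, as it did for NFKBIE, at 97.29, 82.43 and 23.61 against 147.8 in JEKO-1 and at 11.61 against 46.52 and 56.09 in Z138.

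The other falls were those of ICAM1 (log2 difference -2.15), NFKB2 (-1.79), NFKBID (-1.71), TNFAIP3 (-1.64), RELB (-1.58), BCL3 (-1.24), PLEK (-1.24), NFKBIA (-1.19) and MARCKS (-0.93), with limma adjusted p from 0.00347 to 0.0496. Several of these calls lie close to the threshold: PLEK and MARCKS each lost theirs in 6 of 10 alternatives, NFKB2 in 7 and NFKBID in 3. Without the 6 libraries with under 14000 genes detected, TNFAIP3, RELB and BCL3 lost their calls too, beside NFKB2, NFKBID and PLEK. That setting was chosen after seeing the data. It drops the only Z138 BTZ library and JEKO-1 BTZ replicate 3. Among 10 fits that left out 1 sample each, NFKB2, PLEK and MARCKS lost their calls in 7 and NFKBID in 4. With Z138 libraries paired by name suffix, NFKB2 was no longer called (adjusted p = 0.0534), and NFKB1 was (adjusted p = 0.0446). Without JEKO-1 BTZ replicate 3, 11 members were called: NFKB2, RELB, NFKBID, BCL3 and ICAM1 were lost, and TNIP1, TNFAIP8 and MIR155HG were gained. RGS1 rose by 2.10 (SE 0.67, adjusted p = 0.026), a call lost without the libraries over 50% mitochondrial and in 6 of 10 fits that left out 1 sample each. Of the 44 other pathway genes 11 fell, led by TNFRSF1B (-2.26), JUNB (-1.88) and BCL2L1 (-1.79), while TRAF6 (1.31) and OTULIN (0.91) rose.

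Within JEKO-1, BTZ replicate 3 differed from the other BTZ libraries in many members. NFKB2 held 173.2 and 153.2 nuclear CPM in replicates 1 and 2 and 1.328 in replicate 3, against 140.5 in CON. RELA held 151.7, 135.9 and 4.982 against 126.1, and RELB 122.6, 119.8 and 3.321 against 109.1. ICAM1 was at 14.14 and 17.77 and listed at 0 in replicate 3, against 25.8 in CON.

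Not every member was low in JEKO-1 BTZ replicate 3. REL held 86.52, 44.86 and 185.6 nuclear CPM in the 3 libraries against 83.13 in CON, and MARCKS, a membrane-bound kinase substrate, 80.58, 66.84 and 349.8 against 196. RGS1 was at 223.3 and 237.3 in replicates 1 and 2, far above 6.346 in replicate 3 and 8.772 in CON. The mitochondrial share was 67.556% and 67.503% in replicates 1 and 2 and 9.921% in replicate 3; its part was not tested. None of 38 members was called in BTZ against CON in JEKO-1 (0.0945% of 15870 genes were called higher and 0.107% lower, and 6 members had an unadjusted p under 0.05). Without replicate 3 the log2 difference of RGS1 was 4.56. Leaving out replicate 3, or replicates 1 and 2, left 1 BTZ sample against 1 CON sample, so calls are not counted there. With CPM as deposited 8 members were called lower, and all genes split into 49 higher and 2482 lower against 15 and 17.

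CD83 of JEKO-1 stood above CON in BTZ replicates 1 and 2 and in BTZ_CLF, at 156, 161 and (replicate 3) 52.02 nuclear CPM in BTZ and at 126.7 and 142.8 in BTZ_CLF against 84.15 in CON. In Z138 it was at 1.687 in BTZ against 15.53 and 15.6. NFKBIA was at 42, 55.7 and 17.42 in JEKO-1 BTZ against 85.94 in CON, and at 103.6 in Z138 BTZ against 134.7 and 157.9. TNFAIP3 held 51, 44.56 and 19.19 in JEKO-1 BTZ, around and below its 47.38 in CON, and 30.98 in Z138 BTZ against 189.4 and 246.

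Few NF-kB genes passed the test with IBR against CON. Of 38 members 3 fell and 1 rose, beside 4.93% of all genes called lower and 3.23% called higher, and the median log2 difference was -0.33 over the members and -0.002 over all genes. CD83 fell by 2.57 (SE 0.58, adjusted p = 0.00567), TNFAIP3 by 1.37 (SE 0.39, adjusted p = 0.0243) and NFKB1 by 1.11 (SE 0.35, adjusted p = 0.0395). TNIP1 rose by 0.82 (SE 0.23, adjusted p = 0.0214). In MINO-P and MINO-VR this comparison crosses the split in library names. With JEKO-1 and Z138 only, no member was called, and without a term for the split 14 were. Within lines, the median log2 difference of the members was -1.44 in MINO-P, -1.06 in MINO-VR, -0.70 in JEKO-1 and -0.17 in Z138. Over all genes it was -0.27, -0.11, -0.03 and 0.02. Among 13 fits that left out 1 sample each, NFKB1 lost its call in 9, TNFAIP3 in 4, TNIP1 in 2 and CD83 in 0. With Z138 libraries paired by name suffix, NFKBIZ was called as well (adjusted p = 0.042).

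CD83 was lower in every IBR library than in the CON libraries of its line. It stood at 17.46, 17.52 and 11.13 nuclear CPM in MINO-P IBR against 284.1 in CON and at 34.86, 30.98 and 31.86 against 107 in MINO-VR. In JEKO-1 it was at 15.16, 13.72 and 11.18 against 84.15, and in Z138 at 3.61 and 4.014 against 15.53 and 15.6.

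NFKB1, which encodes the p50 subunit, was at 40.26 to 87.67 nuclear CPM in MINO-P IBR against 255.4 in CON, and at 54.48 to 103.9 against 219.9 in MINO-VR. It was at 50.37 to 68.25 against 104.2 in JEKO-1, and at 51.26 and 69.07 against 119.6 and 97.7 in Z138. Here too no IBR library reached the CON libraries of its line. TNIP1 was at 143.1 and 150.3 in Z138 IBR against 115.3 and 87.05, and at 275.4 to 297.4 against 140.3 in JEKO-1, above CON in both lines. PIM1 held 74.7, 96.31 and 117.9 in MINO-P IBR, 76.51, 86.45 and 36.91 in MINO-VR, 690.2, 653.7 and 646.5 in JEKO-1 and 27.57 and 13.88 in Z138, below CON in every line except JEKO-1. Fitted within a line, none of the 38 members was called in JEKO-1 (0.00630% of all genes called higher and 0.0126% lower, 6 members and 979 genes with an unadjusted p under 0.05) or in Z138 (0% of genes called, 3 members and 1542 genes). The difference between JEKO-1 and Z138 in the response to IBR gave no call either (0% of genes, 6 members and 531 genes).

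IBR against S63845 could be compared among libraries of the MCL name series in all 4 lines. Here 7 of 38 members fell and none rose, beside 5.75% of all genes called lower and 2.55% called higher. With size factors the genes split into 626 higher and 853 lower against 423 and 955, and 7 members fell again. The median log2 difference was -0.61 over the members and -0.05 over all genes. The 7 were CD83 (-2.34, SE 0.50, adjusted p = 0.00353), MIR155HG (-1.82, SE 0.44, adjusted p = 0.00867), NFKBIZ (-1.72, SE 0.41, adjusted p = 0.00805), TRAF1 (-1.65, SE 0.49, adjusted p = 0.0295), TNFAIP3 (-1.54, SE 0.34, adjusted p = 0.00406), TNFAIP8 (-1.27, SE 0.38, adjusted p = 0.0322) and NFKBIA (-0.96, SE 0.28, adjusted p = 0.0255). With JEKO-1 and Z138 only none was called (adjusted p from 0.29 to 0.774, CD83 still at -2.34). Among 14 fits that left out 1 sample each, TNFAIP8 lost its call in 8, TRAF1 in 5 and NFKBIA in 2, and the other 4 members kept theirs. Mitochondrial shares were 5.585% to 20.89% in IBR and 3.912% to 17.52% in S63845 libraries, and their part was not tested.

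CD83 stood at 145.7 and 33.24 nuclear CPM in MINO-P S63845, 251.6 in MINO-VR, 68.72 in JEKO-1 and 19.43 and 18.41 in Z138, in each line above every IBR library. NFKBIZ, a nuclear regulator of NF-kB, was at 27.59 to 36.08 nuclear CPM in the S63845 libraries of the MINO lines and JEKO-1 and at 4.737 to 9.747 in their IBR libraries. In Z138 it was at 16.27 and 21.46 with S63845 and at 3.085 and 21.52 with IBR, so the libraries of that line overlapped.

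TNFAIP3 held 134.3 and 72.35 in MINO-P S63845 against 17.19, 22.87 and 41 in IBR. In MINO-VR it held 115.6 against 25.35, 32.14 and 30.87, and in JEKO-1 46.15 against 15.16, 14.69 and 13.47. In Z138 it held 244.8 and 204.4 against 76.46 and 200.8, so that the second IBR library of Z138 lay close to S63845.

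NFKBIA was at 138.7 and 114 in MINO-P S63845 against 56.57, 52.7 and 76.81 in IBR, and at 332.3 against 64.29, 79.25 and 83.19 in MINO-VR. In JEKO-1 it was at 65.51 against 43.15, 40.36 and 31.31. In Z138 the S63845 libraries at 160.7 and 133.5 overlapped the IBR libraries at 94.51 and 166.2. TRAF1, an adaptor of TNF receptors, was at 10.66 to 76.4 nuclear CPM in the S63845 libraries of the MINO lines and JEKO-1 and at 0.8026 to 14.62 in IBR, ranges that meet. In Z138 no library of either exceeded 1.895.

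**Figure D2:**
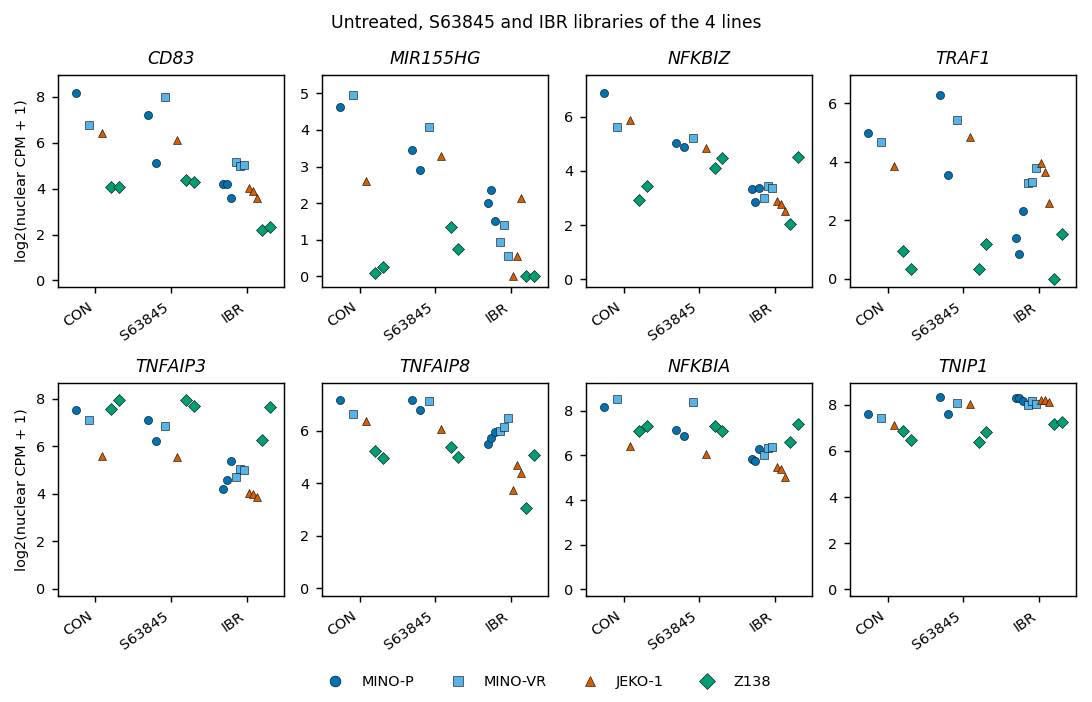
Levels of 8 NF-kB genes in the CON, S63845 and IBR libraries of the 4 lines; each point is 1 library and the vertical axis is log2(nuclear CPM + 1). The IBR points of CD83 lie below the S63845 points of the same line in all 4 lines, while the Z138 points of NFKBIZ and NFKBIA overlap between S63845 and IBR.

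Of the 44 other pathway genes 10 fell and 2 rose in IBR against S63845. The chemokine genes CCL3 (-2.72) and CCL4 (-2.36) and the ubiquitin ligase gene BIRC3 (-2.40) fell most, and TNFRSF1A (1.19) and TRAF6 (0.67) rose. In IBR against CON 3 of the 44 fell, TNFRSF1B (-2.18) and TRAF5 (-0.998) among them, and none rose.

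YM155, S63845 and CLF alone were followed by no called change of a member against CON in the limma fit. For YM155 0.349% of all genes were called higher and 0.181% lower (10 and 2 genes with CPM as deposited against 58 and 30), and 5 members had an unadjusted p under 0.05. RGS1 came nearest, with a log2 difference of 3.04 (SE 0.76, adjusted p = 0.0541), and was called under 6 other settings. It was at 283.8 nuclear CPM in MINO-P YM155 against 9.696 in CON, at 147.5 against 7.175 in MINO-VR, at 47.74 against 8.772 in JEKO-1 and at 230.7 against 48.66 and 23.59 in Z138. RGS1 was thus higher with YM155 than in CON in all 4 lines. Its line means with BTZ, IBR, S63845 and CLF also lay above CON in all 4 lines. With S63845 in Z138 the log2 difference was only 0.06. For S63845 and for CLF 0% of genes were called in either direction, and 2 and 0 members, and 415 and 56 genes, had an unadjusted p under 0.05. YM155 and S63845, directed at the proteins in the study's title, gave no called difference between each other either (0% of genes, 2 members and 1626 genes with an unadjusted p under 0.05).

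The 4 members called in most comparisons can be followed through these single agents. CD83 was at 238.2 (MINO-P), 282.4 (MINO-VR), 71.98 (JEKO-1) and 3.315 nuclear CPM (Z138) with YM155, and NFKBIA at 198, 276, 121.6 and 444.4. PIM1 was at 108.9, 106.7, 629 and 20.62 with YM155, and with S63845 at 92.15 and 99.01 in MINO-P, 121.1 in MINO-VR, 550.9 in JEKO-1 and 42.33 and 34.05 in Z138. TNFAIP3 was at 155.6, 148.7, 73.77 and 208.8 with YM155. Relative to CON, the YM155 libraries held more NFKBIA in JEKO-1 and Z138 (log2 differences 0.50 and 1.60) and less in MINO-P and MINO-VR (-0.55 and -0.42). They held more CD83 in MINO-VR (1.39) and less in Z138 (-1.94), MINO-P (-0.25) and JEKO-1 (-0.22). PIM1 was lower in every line except JEKO-1.

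With CLF alone JEKO-1 held 44.1 and 73.45 (CD83), 60.17 and 81.38 (NFKBIA), 453.1 and 559 (PIM1) and 32.84 and 47.6 nuclear CPM (TNFAIP3), and Z138 held 24.19 and 16.48, 105.7 and 136.3, 28.36 and 21.79, and 163.5 and 222. PIM1 of Z138 lay below both CON libraries and CD83 of Z138 above both, and the other levels lay around or below those of CON.

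BTZ_YM155 libraries exist in MINO-P and MINO-VR only and differ from the BTZ libraries of these lines in name series. In BTZ_YM155 against BTZ, fitted with a term for that series and with the BTZ samples of all 4 lines, 2 of 38 members rose and none fell, beside 0.0361% of all genes called higher and 0.0181% lower (17 and 2 genes with CPM as deposited against 6 and 3). PIM1 was at 283.2 (MINO-P) and 169.9 (MINO-VR) nuclear CPM in BTZ_YM155 against 52.85 and 49.63 in BTZ (log2 difference 2.95, SE 0.54, adjusted p = 0.0107; 2.40 and 1.75 within the lines). NFKBIA was at 429.1 and 256 against 83.03 and 194.4 (log2 difference 2.68, SE 0.49, adjusted p = 0.0107; 2.36 and 0.40 within the lines). Neither was called without the term for library names or without the MINO-P BTZ_YM155 library. CD83 and TNFAIP3 held 85.33 and 114.5 in MINO-P and 72.4 and 50.77 in MINO-VR. The single library of BTZ_S63845, in MINO-VR, held 214.8 (NFKBIA), 52.83 (PIM1), 78.45 (CD83) and 47.96 (TNFAIP3), close to the MINO-VR BTZ library for each gene. BTZ_CLF against BTZ gave no call among the members (0% of genes, 0 members and 539 genes with an unadjusted p under 0.05). In JEKO-1 BTZ_CLF NFKBIA held 22.56 and 38.06, TNFAIP3 24.02 and 30.07 and PIM1 308.6 and 312.9 nuclear CPM, within or near the range of JEKO-1 BTZ.

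IBR in combination was sampled thinly outside CLF. IBR_YM155 held 147.6 (NFKBIA), 114.4 (PIM1), 61 (CD83) and 68.08 (TNFAIP3) in MINO-P and 206.6, 93.38, 1.855 and 178.5 in Z138. The MINO-P library of IBR_S63845 held 110.1, 73.43, 28.86 and 57.39. In MINO-P NFKBIA, CD83 and TNFAIP3 of both combinations lay above every IBR library.

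The JEKO-1 libraries of IBR_CLF held higher levels of most NF-kB genes than those of IBR. Over all 4 lines no member was called (0% of genes, 8 members and 674 genes with an unadjusted p under 0.05), while 34 of 38 log2 differences were above 0 (median 0.48, against 0.05 over all genes). By line, 32 of 38 members lay above 0 in JEKO-1, with a median of 1.96, against 26 in Z138, 22 in MINO-P and 13 in MINO-VR, with medians of 0.24, 0.05 and -0.10. Of all genes, 46.0% lay above 0 in JEKO-1, 67.9% in Z138, 44.9% in MINO-P and 45.6% in MINO-VR. Their medians were -0.08, 0.19, -0.08 and -0.05. A fit of the IBR and IBR_CLF samples by line, chosen after the values had been seen, called 1 of 37 members in JEKO-1, beside 0.0730% of 15064 genes called higher and 0.00664% lower.

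That member was EBI3; its IBR_CLF arm is 1 sample, assumed to vary like the other groups. It was at 52.82 and 46.04 nuclear CPM in the JEKO-1 IBR_CLF libraries. It was listed at 0, 0.1615 and 0 in IBR and at 0.4332 in CON (log2 difference 5.60, SE 0.56, adjusted p = 0.00636). Its size depends on the pseudocount, and with a pseudocount of 0.25, or without either JEKO-1 IBR sample, no member was called.

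NFKB2 was at 964.1 and 952 nuclear CPM in IBR_CLF against 114.7, 98.49 and 64.77 in IBR and 140.5 in CON (log2 difference 3.51, SE 0.71, adjusted p = 0.111). RELB, its partner in the slower branch, was at 412 and 423.1 against 70.97, 101.7 and 47.97 (log2 difference 2.69, SE 0.46, adjusted p = 0.0719). PIM1 was at 2537 and 2627 against 690.2, 653.7 and 646.5, its highest levels in any library. For these 3 genes both IBR_CLF libraries lay far above all IBR and CON libraries of JEKO-1, and the differences missed the threshold in this fit.

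STAT5A, a transcription factor of cytokine signalling, was at 127.2 and 99.75, and BATF, an AP-1 family factor, at 273.7 and 249.2, the highest levels of either gene in the 15 JEKO-1 libraries. NFKBIA was at 171.8 and 180.7 and TNFAIP3 at 93.7 and 124.4, in each case above the untreated library. CD83 was at 107.5 and 101.2 against 84.15 in CON. These 2 libraries are a pair of near-identical names and count as 1 sample. In a fit with every library on its own, near-identical libraries enter as replicates, so no result for this comparison is drawn from its calls. The mitochondrial share of the pair was 60.666% and 59.124%, against 13.483% to 20.885% in JEKO-1 IBR, and its part was not tested. With CPM as deposited, all genes split into 11 higher and 123 lower against 11 and 1, and 26 members lay above 0.

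The difference between JEKO-1 and the mean of the other 3 lines called no member (0.0133% of genes called higher and 0.00% lower, 18 members and 1072 genes with an unadjusted p under 0.05). EBI3 came to a log2 difference of 4.44 (SE 0.64, adjusted p = 0.101). In the other lines IBR_CLF held 67.1 and 65.03 (MINO-P), 80.36 and 81.5 (MINO-VR) and 103.8 and 176.7 (Z138) nuclear CPM of NFKBIA. TNFAIP3 was at 35.17 and 49.44, 22.86 and 22.18, and 184.5 and 195.2 there, CD83 at 43.89 and 34.51, 18.04 and 20.92, and 14.77 and 3.98, and PIM1 at 100.3 and 118.7, 53.69 and 50.19, and 30.82 and 16.19. CD83 was above every IBR library in MINO-P and below every one in MINO-VR. Of 43 other pathway genes, the chemokine gene CCL22 (log2 difference 4.91) and BCL2A1 (4.55) rose in JEKO-1, and CCL22 differed from the other lines (5.18).

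**Figure D3:**
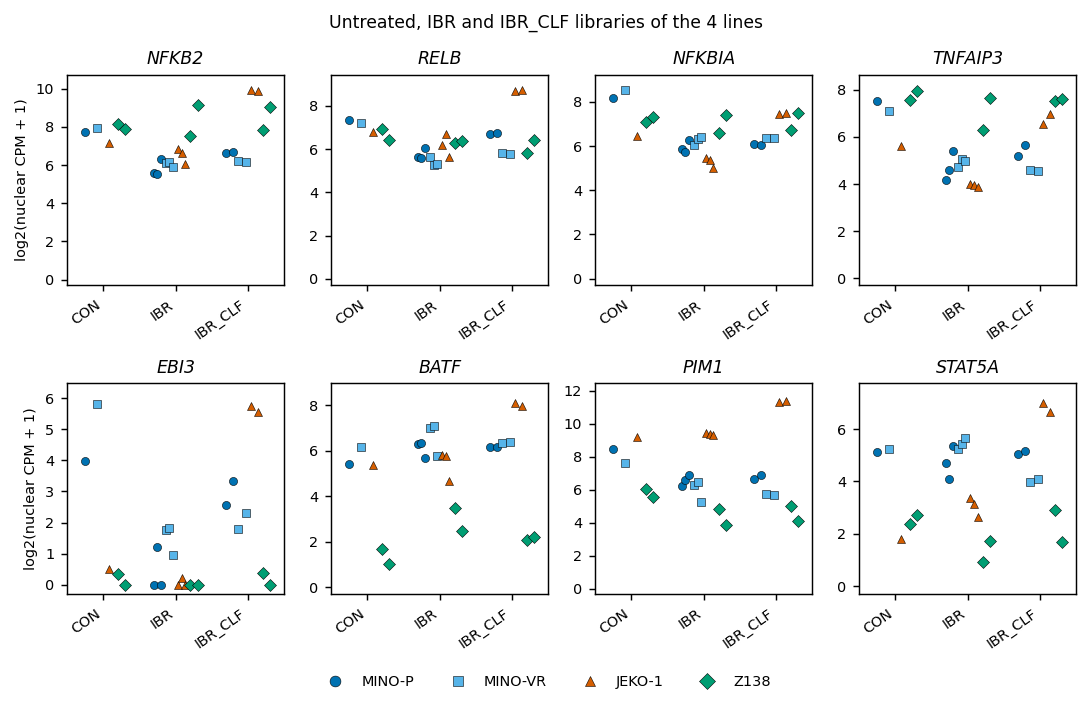
Levels of 8 NF-kB genes in the CON, IBR and IBR_CLF libraries of the 4 lines; each point is 1 library and the vertical axis is log2(nuclear CPM + 1). The 2 JEKO-1 IBR_CLF points (triangles) of NFKB2, RELB, EBI3, BATF, PIM1 and STAT5A lie above all other JEKO-1 points, and they count as 1 sample.

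Between the lines, Z138 stood apart in the number of members called. In Z138 17 of 38 members were lower and 4 higher than in MINO-P, beside 17.9% of all genes called lower and 18.8% higher. Against JEKO-1, 18 were lower and 6 higher, beside 27.5% and 25.6% of all genes. With CPM as deposited the genes split into 5766 higher and 2763 lower in the second comparison, against 4252 and 4564, and the members into 7 and 14. JEKO-1 differed from MINO-P in 7 members, 4 lower and 3 higher, beside 15.3% and 18.7% of all genes, so that the members were called no more often than other genes. With CPM as deposited that split was 1748 higher and 3160 lower against 3102 and 2535, with 2 members higher and 8 lower.

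Surface molecules, adaptors and targets made up the 6 largest differences of Z138 in each comparison. Against MINO-P these were TNFAIP2, BATF, CD40, CD83, STAT5A and TRAF1, and against JEKO-1 PIM1, SDC4, BATF, TRAF1, CD83 and TRAF2. TNFAIP2 was at 0 to 0.4062 nuclear CPM in the 13 Z138 libraries (median 0), and at 3.148 to 75.55 in MINO-P (median 16.85). Against MINO-P its log2 difference was -3.95 (SE 0.48), which depends on the pseudocount because most Z138 libraries list it at 0. SDC4, a heparan sulfate proteoglycan of the cell surface, did not exceed 0.2426 in Z138 and had medians of 2.169 in MINO-P, 0.5817 in MINO-VR and 9.469 in JEKO-1.

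BATF was at 0.9316 to 10.17 (median 3.643) in Z138, below all 15 libraries of MINO-P, which ran from 12.57 to 193.4 (median 64.52; log2 difference -3.36, SE 0.35). CD40, the receptor through which T cells activate B cells, was at 0.7277 to 10.94 in Z138 and at 22.33 to 108.4 in MINO-P (log2 difference -3.08, SE 0.37). CD83 had a median of 14.77 in Z138 against 73.45 in JEKO-1, 43.89 in MINO-P and 78.45 in MINO-VR (log2 difference from MINO-P -2.91, SE 0.43). TRAF1 had a median of 0.9096 against 13.6, 15.23 and 37.73. BATF and CD40 of Z138 thus did not overlap MINO-P in any library, while the ranges of CD83 and TRAF1 met.

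Some feedback inhibitors were higher in Z138 than in MINO-P and JEKO-1. TNFAIP3 had a median of 195.2 nuclear CPM (30.98 to 246) in Z138, against 44.56 in JEKO-1, 57.39 in MINO-P and 38.01 in MINO-VR (log2 difference from MINO-P 1.36, SE 0.29, adjusted p = 0.000238; from JEKO-1 1.80, SE 0.26, adjusted p = 3.59e-07). NFKBIA had a median of 136.3, against 55.7, 110.1 and 194.4 (from MINO-P 0.69, SE 0.24, adjusted p = 0.021; from JEKO-1 1.08, SE 0.22). Its median in MINO-VR was thus above that in Z138. The NFKBIA call against MINO-P was lost without the series term and in 2 of 26 fits that left out 1 sample each. Its log2 difference went down to 0.17 and its limma adjusted p up to 0.644. NFKB2 was higher than in MINO-P by 1.94 (SE 0.47) and MARCKS by 1.21 (SE 0.25) on the log2 scale. GADD45B, a stress-induced gene, RGS1, MARCKS and MAP3K14 were higher in Z138 than in JEKO-1, by 1.21, 1.15, 1.03 and 1.02. GADD45B lost its call in 10 and RGS1 in 7 of 24 fits that left out 1 sample each, in both cases also without JEKO-1 BTZ replicate 3. The inhibitors NFKBIE, NFKBID and TNIP1 were lower in Z138 than in MINO-P, by 1.43, 1.33 and 0.92, so the inhibitors did not move as 1 group. Of the 44 other pathway genes 16 were lower and 3 higher in Z138 than in MINO-P, and TRAF5, an adaptor of TNF receptors, had a log2 difference of -3.54. Against JEKO-1 12 of the 44 were lower and 7 higher.

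PIM1 was called different between all 3 pairs of MINO-P, JEKO-1 and Z138. Its medians were 559 nuclear CPM in JEKO-1 (233 to 2627), 100.3 in MINO-P (52.85 to 351), 76.51 in MINO-VR (36.91 to 267) and 28.36 in Z138 (11.86 to 93.38). Its log2 difference was 2.96 (SE 0.29, adjusted p = 1.18e-10) for JEKO-1 against MINO-P and -4.62 (SE 0.24, adjusted p = 4.5e-19) for Z138 against JEKO-1. MINO-P and MINO-VR are neighbours in this order that were not called different. JEKO-1 was also higher than MINO-P in SDC4 (1.94) and in CD80 (0.80, adjusted p = 0.0492), a ligand that costimulates T cells. The call of CD80 was lost in 6 of 8 alternatives and in 16 of 24 fits that left out 1 sample each (log2 difference down to 0.24, adjusted p up to 0.54). It was lower in STAT5A (-1.68), TNFAIP2 (-1.55), CD40 (-1.21) and PIM2 (-0.78). Of the 44 other pathway genes 4 were higher and 14 lower.

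**Figure D4:**
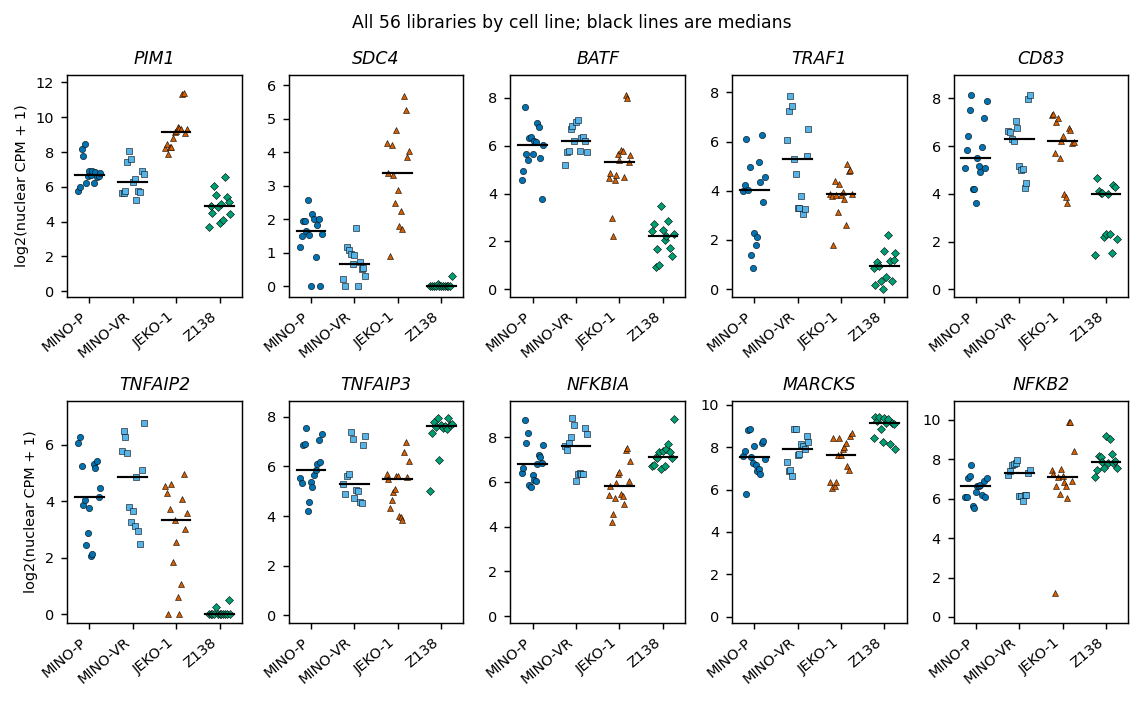
Levels of 10 NF-kB genes in all 56 libraries by cell line; each point is 1 library, black lines are medians, and the vertical axis is log2(nuclear CPM + 1). The Z138 medians of SDC4 and TNFAIP2 lie at 0 and that of TNFAIP3 above the other lines, while JEKO-1 has the highest PIM1 median, 559 nuclear CPM.

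MINO-VR was compared with MINO-P over matched treatments in 21 samples. Of 37 members 7 were higher and 1 lower, beside 9.93% of 14497 genes called higher and 7.28% lower. EBI3 was higher by 1.87 (SE 0.35, adjusted p = 0.00159), TRAF1 by 1.44 (SE 0.32, adjusted p = 0.00522), ICAM1 by 0.97 (SE 0.15, adjusted p = 0.00029) and TRAF2, another TNF receptor adaptor, by 0.87 (SE 0.14, adjusted p = 0.000421). NFKBIA (0.57), NFKB2 (0.51) and RELA (0.35) were higher by less, and SDC4 was lower (-0.91). NFKB2 and SDC4 each lost their call in 16 of 21 fits that left out 1 sample each. EBI3 had a median of 14.17 nuclear CPM in MINO-VR (0.9301 to 81.73) and 2.236 in MINO-P (0 to 18.13), so the lines overlapped when treatments were pooled. Leaving out the CLF, BTZ or BTZ_CLF sample of either line left 5 members called. Of 44 pathway genes 10 were higher, with BIRC3, JUNB (1.15) and TNFSF13B (1.13) the largest, and 4 lower, among them IRF4 (-0.76), a transcription factor of B-cell differentiation.

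**Figure D5:**
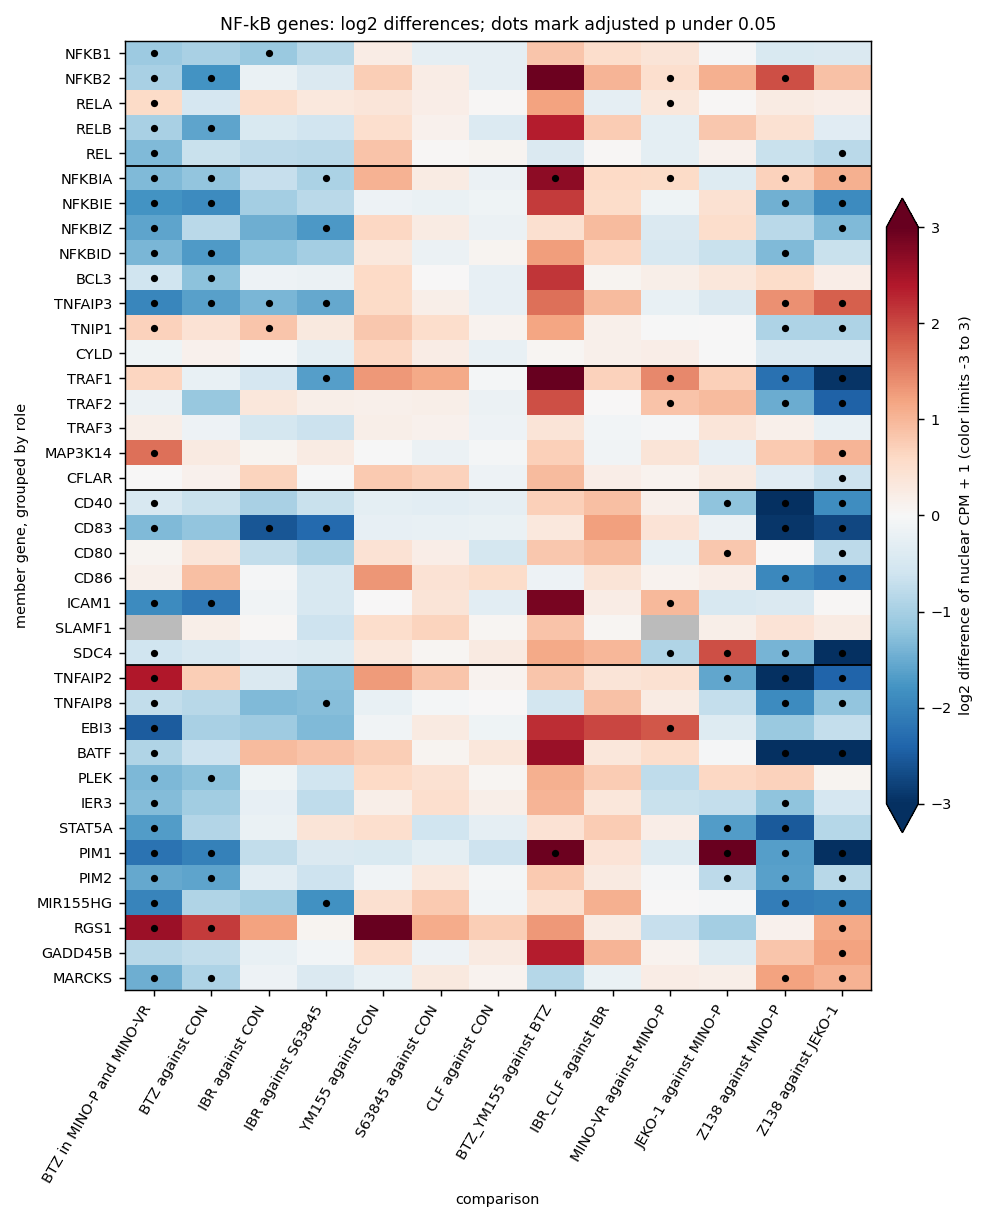
Log2 differences of the 38 members (rows, grouped by role) in 13 comparisons (columns), red for higher and blue for lower, with dots at limma adjusted p under 0.05; gray marks a gene not tested. The dots of the members are densest in BTZ in MINO-P and MINO-VR (29) and in the Z138 columns (21 and 24), and absent from the YM155, S63845 and CLF columns. Over all genes, 7550 of 13442 were called in BTZ in MINO-P and MINO-VR, and 6096 and 8816 of 16615 in the Z138 columns.

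The 38 members together gave 123 calls in these comparisons, several of which share samples. NFKBIA was called in 7 of 22 comparisons, 4 times higher and 3 times lower. CYLD, a deubiquitinase of the pathway, TRAF3, which restrains MAP3K14, and SLAMF1, a receptor of the SLAM family, were called in none. CYLD ran from 43.15 to 196.7 nuclear CPM over all libraries and TRAF3 from 37.72 to 216.3, while SLAMF1 did not exceed 3.311 and reached 1 nuclear CPM in 6 libraries.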

How the data were processed

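RNA of 56 libraries had been isolated on QIAshredder columns and RNeasy kits, and poly-A libraries made with the TruSeq kit v2, per the labels' protocols. The deposited table held 21596 rows and 56 value columns in units of log2(CPM + 1), made by the authors with Partek on hg38, per the submitters' processing notes; aligner, counter, strand use and filters are not given in the sources used here. Of 21595 named genes, 15 mitochondrial genes were left out and CPM recomputed over the other 21580, with values under 1e-06 set to 0. Low CPM values were read as whole reads to recover depth, and floors cover counting error only.

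Groups are line and treatment from the labels. Near-identical pairs of libraries (8) were averaged. Under R 4.3.3, limma 3.58.1 (eBayes, trend) was fitted to log2(nuclear CPM + 1), pseudocount 1, for genes with at least 1 CPM in 2 samples, with Benjamini-Hochberg adjustment over all genes tested and calls under 0.05; all adjusted p-values are from limma. Treatment and line comparisons used all 48 samples with line, treatment and library name series as terms. Alternatives were CPM as deposited, size factors, a pseudocount of 0.25, no filter, each library as its own sample, no series term, JEKO-1 and Z138 only, and each sample left out. In Z138, 5 treatments have a library with and 1 without a final A in its name; the differences within these pairs correlated at 0.241 to 0.646 between treatments over 12507 genes, so the suffix was also fitted as a replicate block, chosen after seeing the data. Tables were handled with Python 3.11.15 and pandas 2.3.3.

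The members and gene lists were chosen with earlier results of these data known. In each comparison all called members were named where 12 or fewer, otherwise the 6 largest rises and falls, with up to 3 other pathway genes in each direction; a gene of the pathway list is not reported here. Values in every sample are given for the 4 members called most often.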

Additional observations from a re-analysis of the deposited data

Results flagged for a closer look

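The response to BTZ differed between MINO-VR and MINO-P in 7 of 37 members, by a test of the difference itself in limma over the 8 libraries of CON, CLF, BTZ and BTZ_CLF (4.24% of all genes were called higher and 3.88% lower). Each value is the log2 difference with BTZ in MINO-VR minus that in MINO-P. CD86 came to 2.12 (SE 0.33, adjusted p = 0.0132), CD83 to 2.07 (SE 0.38, adjusted p = 0.0203), TNFAIP8 to 1.12 (SE 0.21, adjusted p = 0.0216) and NFKB1 to 0.90 (SE 0.21, adjusted p = 0.0356). GADD45B came to -2.09 (SE 0.48, adjusted p = 0.0365), PLEK to -1.53 (SE 0.20, adjusted p = 0.00748) and NFKBIE to -0.68 (SE 0.16, adjusted p = 0.0383). CD86, with CD80 a costimulatory ligand for T cells, went from 46.69 and 33.16 nuclear CPM without BTZ to 17.47 and 23.77 with it in MINO-P, and from 27.83 and 21.89 to 71.51 and 47.46 in MINO-VR. It was lower with BTZ in MINO-P and higher in MINO-VR, while CD83 was lower in both lines and by less in MINO-VR. NFKB1 went from 255.4 and 184 nuclear CPM to 75.58 and 71.78 in MINO-P and from 219.9 and 196.1 to 162.4 and 108.5 in MINO-VR, so it was lower with BTZ in both lines and by less in MINO-VR. No member was called without the filter on low values, and 1 to 8 were called when each library was left out: 1 without MINO-P CON, 2 without MINO-P BTZ or MINO-VR CON and 4 without MINO-P CLF. Of 44 other pathway genes 5 were higher, led by CCL22 (4.23), BIRC3 (2.42) and TNFRSF1B (2.39), and 6 lower, led by CCL4 (-2.97), IL6 (-2.78) and CCL3 (-2.52).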

How the results depend on the processing

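Of 123 member calls, 74 held under every alternative and left-out sample run, 49 were lost under at least 1, and none reversed. In MINO-P and MINO-VR the library name series and treatment cannot be told apart. The causes of the following changes were not tested. Members called with JEKO-1 and Z138 only were 3 in BTZ against CON (13 in the report), 0 in IBR against CON (4) and 0 in IBR against S63845 (7). Without the series term they were 14 in IBR against CON, 13 in JEKO-1 against MINO-P (7), 0 in BTZ_YM155 against BTZ (2) and 1 in YM155 against CON (0). With each library as its own sample they were 7 in IBR against CON, 13 in IBR against S63845, 5 in BTZ_YM155 against BTZ, 11 in JEKO-1 against MINO-P, 1 in YM155 against CON, 22 in IBR_CLF against IBR in JEKO-1 (1) and 19 in its difference from the other lines (0). That setting enters near-identical libraries as replicates, and the JEKO-1 IBR_CLF libraries form such a pair. Its larger counts are therefore not evidence of more called members. With no filter the members called were 5 in MINO-VR against MINO-P (8) and 0 in BTZ by line (7). Also with no filter, they were 3 in IBR_CLF against IBR in JEKO-1 and 1 in its difference from the other lines. CPM as deposited gave 1 in YM155 against CON and 8 in BTZ against CON in JEKO-1 (0), size factors 1 in YM155 against CON and 4 in IBR_CLF against IBR in JEKO-1, and a pseudocount of 0.25 gave 0 there.

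Chosen after seeing the data, leaving out libraries with under 14000 genes detected gave 8 in IBR against CON and 1 in YM155 against CON. It gave 11 in IBR against S63845 and 11 in JEKO-1 against MINO-P. Leaving out libraries over 50% mitochondrial, also chosen after seeing the data, gave 1 in YM155 against CON and 4 in BTZ_YM155 against BTZ. Either choice left 1 BTZ sample in JEKO-1, so calls within that line are not counted.

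Leaving out each sample in turn gave 8 to 12 called members in BTZ against CON (8 without MINO-P CON), 1 to 7 in IBR against CON (1 when Z138 CON replicate 2 was left out, 2 for MINO-P CON or either JEKO-1 IBR sample, 7 for Z138 IBR replicate 2) and 4 to 9 in IBR against S63845 (4 without MINO-P S63845 replicate 1 or MINO-VR S63845). It gave 0 to 3 in BTZ_YM155 against BTZ and 5 to 11 in JEKO-1 against MINO-P (11 without JEKO-1 BTZ replicate 3). The count was 5 to 10 in MINO-VR against MINO-P and 1 to 8 in BTZ by line. IBR_CLF against IBR in JEKO-1 gave 0. BTZ against CON in JEKO-1 kept 1 BTZ sample in each such fit, so its calls are not counted. Where this left an arm with 1 sample, that sample was assumed to vary like the other groups. With Z138 name suffix as a replicate block (chosen after seeing the data), 13 members were called in BTZ against CON, 5 in IBR against CON, 7 in IBR against S63845 and 0 in IBR against CON in Z138, and the block changed no member call except those of NFKB1, NFKB2 and NFKBIZ given above. In the other lines no paired analysis was possible because the labels give no replicate numbers.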
